A study of Homo sapiens with 6 samples.

Results

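The genes examined here are, with 2 exceptions, those of nucleoporins, the proteins that build the nuclear pore complex, and karyopherins, the importins and exportins that carry cargo through it. They were taken by symbol alone: every row of the RNA-seq table whose gene column held a NUP symbol followed by a digit, KPNA or KPNB, IPO, XPO or TNPO. This gave 48 genes of the 26822 distinct symbols in the table, 24 NUP symbols and 24 karyopherin symbols. The 2 exceptions among the NUP symbols are NUP50-AS1, an antisense RNA gene, and NUP210P1, a pseudogene. The RNA came from MCF10A cells, a widely used non-tumour line of breast epithelium, transfected at 30 nM for 72 hours with a non-targeting siRNA (siNT, 3 samples) or with siRNAs against PAX9 (siPAX9, 3 samples). PAX9 is an RNA polymerase II transcription factor, and the comparison asks which mRNAs depend on it. All 6 samples are of the same line, so the experiment covers 1 genetic background.

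The deposited table gives 1 FPKM per group and gene (reads normalised to transcript length and to the mapped reads of a library), combined by the authors from the 3 samples. It holds no value per sample and no counts, so the spread between samples and the depth behind each value are unknown, no difference below could be tested, and every difference is a description of the pooled values. FPKM is per length, so levels can be set side by side between genes. A gene was called lower or higher at a difference of 2-fold or more in that direction, provided that it reached 1 FPKM in the higher group. The median log2 change of siPAX9 over siNT among the 13622 symbols past that minimum was -0.07. PAX9 itself was at 2.80 FPKM in siNT and 0.325 FPKM in siPAX9. Its row is listed at a locus (chromosome 14, 37126772 to 37642998) far longer than the gene, which the neighbouring SLC25A21, in a row of its own at 0.861 and 0.487 FPKM, shares, and how reads there were assigned was not tested. The 8 breast epithelial markers looked up were all detected, 3 of them lower and 5 higher in siPAX9. KRT5 was at 1558 FPKM in siNT and 1807 in siPAX9, EPCAM at 34.3 and 16.7 (called lower) and CDH1 at 45.3 and 124 (called higher). Of the 4 fibroblast markers, DCN was at 5.85 and 37.9 FPKM and COL1A1 at 0.454 and 4.13, COL1A2 was listed at 0 in siNT and PDGFRB was at 0.0781 and 0.0637, and the list summed to 6.38 FPKM in siNT and 42.1 in siPAX9. Among 3 leukocyte and 3 endothelial markers, 1 of each list reached the FPKM minimum. CD68 was at 3.38 FPKM in siNT and 3.77 in siPAX9, and PECAM1 at 2.58 and 0.495 (called lower). CD3E was at 0 in both groups. The leukocyte list summed to 3.40 and 3.86 FPKM and the endothelial list to 2.58 and 0.516 FPKM. Their part in the results below was not tested.

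The nuclear pore is a ring-shaped channel through the nuclear envelope. Its scaffold is built from the Y complex on the outer faces and the inner ring, a trimer of phenylalanine-glycine nucleoporins fills the central channel, and filaments and a basket project to the cytoplasm and the nucleus. Importins bind cargo in the cytoplasm and release it when the GTPase Ran, charged with GTP, binds them in the nucleus, while exportins bind cargo together with Ran-GTP and let go of it in the cytoplasm. In dividing cells the pores are taken apart and rebuilt at each mitosis, and several nucleoporins and importins also act at the spindle.

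Most of these mRNAs were lower in siPAX9. Of the 48 genes, 45 reached the minimum of 1 FPKM and 3 did not, namely NUP210L at 0.0551 and 0.0700 FPKM, KPNA7, listed at 0 in siNT and at 0.302 FPKM in siPAX9, and the pseudogene NUP210P1, listed at 0 in both. Of the 45, 35 were lower in siPAX9 (77.8%) and 10 were higher, against 54.8% lower over all symbols past the minimum. The median log2 change of the 45 genes was -0.33. At the 2-fold threshold 4 genes were called lower, NUP210, NUP37, NUP62CL and IPO5, and 0 were called higher. Of all symbols past the minimum, 7.22% were called lower and 7.75% higher, and of the 9785 symbols within the range of mean FPKM that the 45 genes span, 5.68% and 4.61%. The 4 of 45 is near these shares. At a 1.5-fold threshold 13 of the 45 were lower and 0 higher, beside 17.0% lower and 14.8% higher over all symbols. Of the 45 differences, 41 were thus under 2-fold. The NUP symbols past the minimum, NUP50-AS1 included, had a median log2 change of -0.44, with 21 of 22 lower, and the karyopherin symbols a median of -0.12, with 14 of 23 lower.

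**Figure D1:**
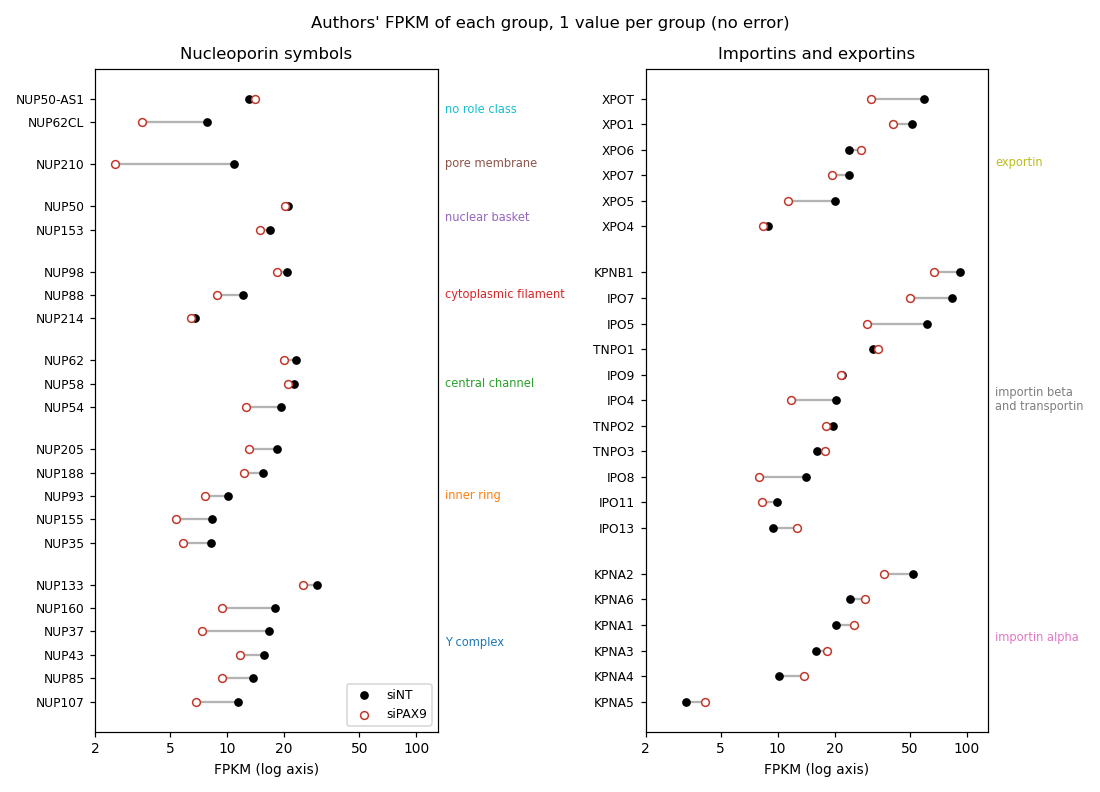
FPKM of the 45 genes past the minimum in siNT (filled) and siPAX9 (open), by role, on a log axis, 1 pooled value per group with no error. The open points lie to the left of the filled ones for 35 of the 45 genes, and among the importin alphas KPNA2 alone has its open point on the left.

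**Figure D2:**
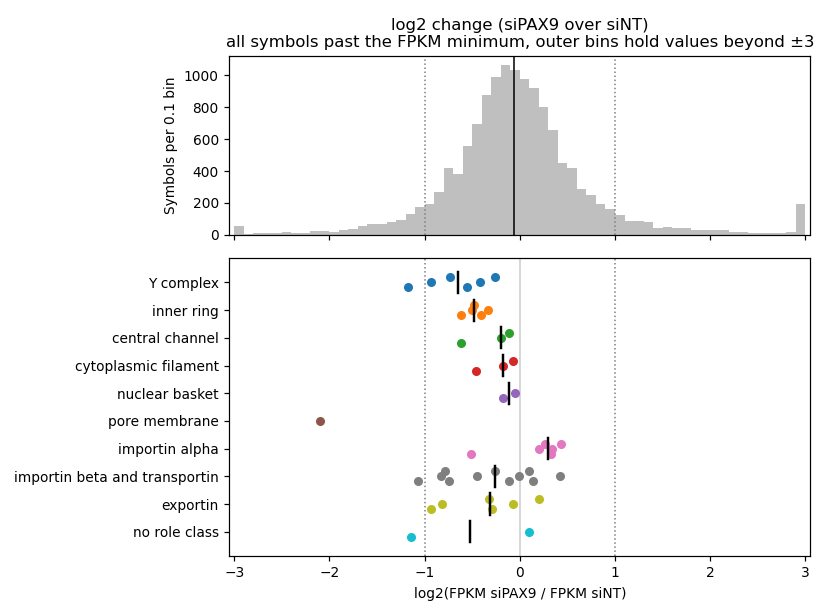
The log2 change (siPAX9 over siNT) of the 13622 symbols past the minimum as a histogram, with the median as a line, above the changes of the 45 genes by role, with a bar at each role's median. Dotted lines mark 2-fold. Of the roles with more than 2 genes, the 6 NUP-named Y complex genes have the lowest median, at -0.65. The importin alphas have the highest, at 0.30.

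The 4 genes past the 2-fold threshold and KPNA2, the most abundant importin alpha, are shown here by the 250 bases upstream of their annotated start (RefSeq, GRCh38.p14, 5′ to 3′ on the gene's strand), so that the sequence can be read beside the values that follow. Capitals mark CACGTG (the E-box that MYC-type factors bind), TTTGAA (the core of the cell cycle homology region), CCAAT (the CCAAT box) and TTGGCGC and TTCCCGC (E2F-type sites), searched on both strands. None of these strings contains another.
NUP210 (chr3:13420323-13420572, minus strand): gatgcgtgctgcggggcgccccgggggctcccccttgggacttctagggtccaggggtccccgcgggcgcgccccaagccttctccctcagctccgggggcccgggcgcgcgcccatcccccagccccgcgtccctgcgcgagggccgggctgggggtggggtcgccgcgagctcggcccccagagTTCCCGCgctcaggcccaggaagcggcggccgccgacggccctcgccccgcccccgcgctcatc
NUP37 (chr12:102120115-102120364, minus strand): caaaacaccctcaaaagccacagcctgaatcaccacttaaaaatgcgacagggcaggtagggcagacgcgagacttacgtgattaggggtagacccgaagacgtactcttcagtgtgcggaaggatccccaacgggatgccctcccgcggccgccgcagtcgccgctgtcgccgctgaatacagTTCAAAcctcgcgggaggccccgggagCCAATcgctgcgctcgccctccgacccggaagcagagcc
NUP62CL (chrX:107206434-107206683, minus strand): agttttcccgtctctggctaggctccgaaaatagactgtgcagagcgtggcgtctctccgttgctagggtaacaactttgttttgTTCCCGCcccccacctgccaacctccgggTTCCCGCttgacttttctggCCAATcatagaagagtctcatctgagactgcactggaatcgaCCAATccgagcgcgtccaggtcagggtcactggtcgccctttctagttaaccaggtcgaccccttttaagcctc
IPO5 (chr13:97953425-97953674, plus strand): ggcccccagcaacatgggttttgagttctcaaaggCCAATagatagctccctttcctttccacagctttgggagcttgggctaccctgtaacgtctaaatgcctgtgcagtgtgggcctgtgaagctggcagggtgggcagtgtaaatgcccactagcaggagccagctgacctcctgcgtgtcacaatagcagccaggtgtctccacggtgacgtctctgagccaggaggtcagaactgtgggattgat
KPNA2 (chr17:68035485-68035734, plus strand): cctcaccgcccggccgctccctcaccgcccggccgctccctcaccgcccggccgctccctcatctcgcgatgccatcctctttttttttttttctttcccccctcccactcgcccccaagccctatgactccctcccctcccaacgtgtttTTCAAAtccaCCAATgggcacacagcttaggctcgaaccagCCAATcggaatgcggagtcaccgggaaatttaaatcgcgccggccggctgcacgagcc

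In these windows NUP37 held 1 TTTGAA and 1 CCAAT match, KPNA2 held 1 TTTGAA and 2 CCAAT matches, NUP62CL held 2 CCAAT and 2 TTCCCGC matches, IPO5 held a CCAAT match and NUP210 a TTCCCGC match. Promoter windows of 300 bases, with 250 before the start and 50 after it, were found for 39 of the 45 genes, as 50 windows, since some genes have several starts whose windows may overlap. CCAAT was in 46% of the 50 windows, against 35.0% of the 14044 windows of all symbols past the FPKM minimum and 34.6% of all 35116 windows. TTTGAA was in 24%, against 10.7% and 15.2%, and it was found at 10 genes: IPO7, IPO11, KPNA2, NUP35, NUP37, NUP50, NUP93, NUP98, NUP153 and NUP205. TTCCCGC was in 20%, against 9.67% and 6.55%, CACGTG in 14%, against 9.38% and 7.26%, and TTGGCGC in 6%, against 4.56% and 3.04%. A match is only a string of letters, and binding was not measured here.

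The Y complex, the scaffold that also recruits other nucleoporins during pore assembly, had all 6 of its NUP-named genes lower in siPAX9. NUP37, one of its peripheral subunits (chromosome 12, 102466881 to 102513898 on GRCh37, the coordinates of the authors' hg19), was at 16.7 FPKM in siNT and 7.39 FPKM in siPAX9, 2.26-fold lower. NUP160, a core subunit of the complex, was at 17.9 and 9.34 FPKM, a log2 change of -0.94 that lies just under the threshold. NUP107 was at 11.5 and 6.88 FPKM, NUP85 at 13.7 and 9.34 FPKM and NUP43 at 15.6 and 11.7 FPKM. NUP133, the most abundant of the 6, was at 30.0 and 25.1 FPKM and had the smallest difference, a log2 change of -0.26. The 6 genes together summed to 105 FPKM in siNT and 69.7 in siPAX9, a ratio of 0.662. The same ratio of summed FPKM was 0.834 over all symbols in the table and 0.930 over the 9785 symbols in the FPKM range of the 45 genes. Such sums weigh the most abundant genes most, and a row with several symbols enters once per symbol. The median log2 change of all symbols past the minimum was -0.07. Of the subunits with other names, SEH1L (chromosome 18) was at 33.7 and 11.7 FPKM, 2.87-fold lower, whereas SEC13 was at 36.2 and 38.8 FPKM and AHCTF1, which seeds pore assembly on chromatin, at 22.5 and 26.2 FPKM. SEC13 also serves in the coat of vesicles that leave the endoplasmic reticulum. Within this 1 complex the values thus ran from a log2 change of -1.52 for SEH1L to 0.22 for AHCTF1. With these 3 subunits included, 7 of 9 genes were lower, with a median log2 change of -0.56. The 9 genes summed to 198 FPKM in siNT and 146 in siPAX9, a ratio of 0.741.

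The inner ring genes lay close to each other. NUP155, which binds the pore membrane, was at 8.27 FPKM in siNT and 5.38 FPKM in siPAX9, 1.54-fold lower. NUP205, the highest of the 5 in FPKM, was at 18.4 and 13.0, and its structural relative NUP188 at 15.5 and 12.3. NUP93, the linker of the ring, was at 10.2 and 7.68 FPKM and NUP35 at 8.18 and 5.86 FPKM. The 5 log2 changes lay between -0.62 and -0.33, and each gene's share of the summed inner ring FPKM differed little between the groups, for NUP205 30.5% in siNT and 29.4% in siPAX9.

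In the central channel trimer the 3 genes differed from each other. NUP54 was at 19.3 FPKM in siNT and 12.6 in siPAX9, 1.53-fold lower, while NUP58 was at 22.7 and 21.0 FPKM and NUP62 at 23.0 and 20.0 FPKM. NUP62 shares its row with IL4I1, which overlaps it, so its value cannot be assigned to NUP62 alone. NUP62CL, a gene on the X chromosome (106366657 to 106449663 on GRCh37) related to the C-terminal part of NUP62, was at 7.85 and 3.54 FPKM, 2.21-fold lower, and the FPKM ratio of NUP62 to NUP62CL was 2.93 in siNT and 5.65 in siPAX9. With 1 added to each FPKM the log2 change of NUP62CL was -0.96, under the threshold.

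The filament and basket genes had the medians nearest to 0 of the nucleoporin roles, at -0.17 and -0.12. NUP98, whose precursor also yields the Y complex subunit NUP96, was at 20.7 FPKM in siNT and 18.4 in siPAX9, and NUP214, its cytoplasmic neighbour and a docking site for XPO1, at 6.76 and 6.44. NUP88, the partner of NUP214, was at 12.1 and 8.80 FPKM. In the basket, NUP153 was at 16.8 and 14.8 FPKM and NUP50, which helps importin alpha release its cargo, at 20.9 and 20.2. The basket scaffold TPR was at 24.1 and 24.8 FPKM. RANBP2, the large protein of the cytoplasmic filaments, was at 18.6 and 20.0 FPKM, a value that is uncertain because a family of near-copies shares its sequence. The antisense RNA gene NUP50-AS1, the only one of the 22 NUP symbols above 0, was at 13.1 and 14.0 FPKM. It begins beside NUP50 in the opposite direction and encodes no nucleoporin. NUP50 lay nearer to 0 than the median of all symbols, and after that median was subtracted its log2 change was 0.02.

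NUP210 differed most of all 45 genes. It encodes a glycoprotein that spans the pore membrane and whose amount varies between cell types. The gene (chromosome 3, 13357735 to 13461822 on GRCh37) was at 10.9 FPKM in siNT and 2.54 FPKM in siPAX9, 4.29-fold lower, and 1.56% of all symbols past the minimum had a log2 change as low or lower. NDC1, another pore protein that spans the membrane, was at 19.7 and 10.7 FPKM, a log2 change of -0.88. POM121 and POM121C, near-identical copies whose reads cannot be separated with certainty, had log2 changes of -0.15 and -0.19.

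Among the importin alphas, the adaptors that read the classical nuclear localization signal, KPNA2 stood opposite to the others. KPNA2 (chromosome 17, 66031752 to 66043480 on GRCh37), which is known to be abundant in dividing cells, was at 52.1 FPKM in siNT and 36.4 FPKM in siPAX9, a log2 change of -0.52. The annotation names 3 pseudogenes of KPNA2, and reads may be split with them. The related pair KPNA3 and KPNA4 were at 15.9 and 18.3 FPKM and at 10.2 and 13.8 FPKM. In the third subfamily KPNA1 was at 20.2 and 25.4 FPKM, KPNA6 at 24.1 and 29.1 FPKM and KPNA5 at 3.27 and 4.14 FPKM. All 5 were higher in siPAX9, with log2 changes from 0.20 to 0.43, each under 1.5-fold. The 7 importin alpha genes summed to 126 FPKM in siNT and 127 in siPAX9, a ratio of 1.01, beside the 0.834 of all symbols and the 0.930 of those in the same FPKM range. KPNA2 made up 41.4% of the sum in siNT and 28.6% in siPAX9, and without KPNA2 the sum was 73.8 and 91.0 FPKM. The FPKM ratio of KPNA2 to KPNA6 was 2.16 in siNT and 1.25 in siPAX9.

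**Figure D3:**
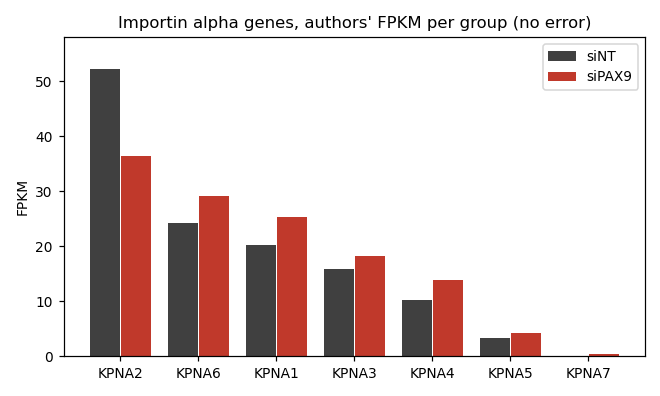
FPKM of the 7 importin alpha genes in siNT (dark bars) and siPAX9 (red bars), 1 pooled value per group with no error. KPNA2 is at 52.1 and 36.4 FPKM, and KPNA1, KPNA3, KPNA4, KPNA5 and KPNA6 are each higher in siPAX9.

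Of the genes whose products work with importin alpha, KPNB1 and CSE1L had lower values by less than 1.5-fold, while NUP50, given above, had a log2 change of -0.05. KPNB1, or importin beta, which carries importin alpha through the pore and was the most abundant of the 45 mRNAs in both groups, was at 91.6 FPKM in siNT and 66.9 in siPAX9, a log2 change of -0.45. CSE1L, the exportin that returns importin alpha to the cytoplasm, was at 45.1 and 32.6 FPKM. The ratio of summed importin alpha FPKM to KPNB1 was 1.37 in siNT and 1.90 in siPAX9, and its ratio to CSE1L was 2.79 and 3.91.

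The importins of the beta family that bind cargo directly comprised genes with lower, near-equal and higher levels in siPAX9. IPO5 (chromosome 13, 98605912 to 98676550 on GRCh37), which imports ribosomal proteins and histones, was at 61.8 FPKM in siNT and 29.5 in siPAX9, 2.09-fold lower, and stood at rank 3 of the 45 genes by FPKM in siNT and at rank 7 in siPAX9. Its close relative RANBP6 was at 20.9 and 14.0 FPKM. IPO7, another importer of ribosomal proteins, was at 83.7 and 50.1 FPKM, 1.67-fold lower, and its paralog IPO8, which has Argonaute proteins among its cargoes, at 14.2 and 7.97 FPKM, 1.78-fold lower. The FPKM ratio of IPO7 to IPO8 was close in the groups, 5.91 and 6.28. IPO4, which binds histones H3 and H4, was at 20.4 and 11.8 FPKM, 1.73-fold lower. In contrast, IPO9, a carrier of histones H2A and H2B, was at 21.8 and 21.7 FPKM, and IPO11 was at 9.90 and 8.25 FPKM in a row that it shares with LRRC70. IPO13, which works in both directions, was at 9.50 and 12.7 FPKM, the largest log2 change upwards in the importin beta class, at 0.42. The importers of histones and ribosomal proteins thus included both the lowest value of the class and a value near 0.

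The 3 transportins were nearly level. TNPO1, the receptor for hnRNP A1 and other RNA-binding proteins, was at 31.9 FPKM in siNT and 34.1 in siPAX9. Its paralog TNPO2 was at 19.5 and 18.0 FPKM in a row shared with the snoRNA SNORD41, and TNPO3, the importer of SR splicing factors, at 16.1 and 17.8. The 11 genes of the importin beta and transportin class summed to 381 FPKM in siNT and 279 in siPAX9, a ratio of 0.732.

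Among the 6 exportins, those for small RNAs had the lowest log2 changes. XPOT, the exporter of tRNA, was the most abundant exportin in siNT at 59.3 FPKM and was at 31.1 FPKM in siPAX9, 1.91-fold lower. XPO5, the exporter of microRNA precursors, was at 20.0 and 11.4 FPKM, 1.76-fold lower. XPO1, the general exporter for proteins with leucine-rich signals, which also takes part in the export of ribosomal subunits, was at 51.4 and 40.9 FPKM, a log2 change of -0.33, and was the most abundant exportin in siPAX9. XPO7 was at 23.7 and 19.3 FPKM and XPO4, an exporter of eIF5A, at 8.84 and 8.40. XPO6, the exporter of actin with profilin, was the only exportin higher in siPAX9, at 24.0 and 27.5 FPKM. The summed exportin level was 187 and 139 FPKM, a ratio of 0.740, close to that of the importin beta class.

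The other genes of the transport pathway were looked up from lists of pore components, Ran cycle genes, karyopherins and mRNA export factors whose symbols the rule above does not match. All 6 genes of the Ran cycle were lower in siPAX9. Their median log2 change was -0.53. RAN, the GTPase that sets the direction of transport, was at 185 FPKM in siNT and 84.1 FPKM in siPAX9, 2.20-fold lower, and was the only one of the 6 past the 2-fold threshold. RCC1, which charges Ran with GTP on chromatin, had a log2 change of -0.63 in a row it shares with SNHG3, and RANGAP1, which triggers GTP hydrolysis, had -0.21. Of 12 further pore components, 8 were lower and 4 higher, with a median of -0.17, and SEH1L was the only one past 2-fold. Of 16 mRNA export factors, 14 were lower, with a median of -0.34. THOC6, a subunit of the THO complex that couples transcription to mRNA export, was at 5.08 and 1.98 FPKM, 2.57-fold lower, the only one of them past 2-fold. The 3 karyopherins with other names, CSE1L, RANBP6 and RANBP17, were all lower, with a median of -0.55, none of them 2-fold. Over the 4 lists 31 of 37 genes were lower (83.8%), beside 54.8% of all symbols past the minimum, and the 3 called lie near the 7.22% of all symbols.

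**Figure D4:**
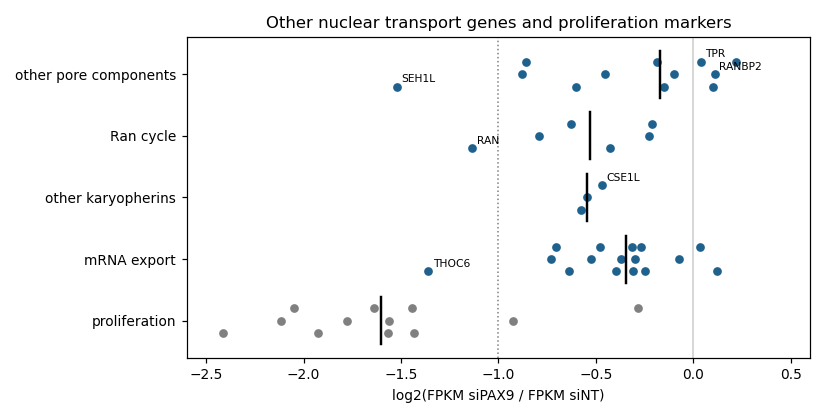
The log2 change (siPAX9 over siNT) of other nuclear transport genes by list and of proliferation markers, with a bar at each median and a dotted line at 2-fold lower. RAN, SEH1L and THOC6 lie beyond the 2-fold line, whereas 10 of the 12 proliferation markers do.

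Proliferation markers were also lower and by more. All 12 genes of that list, among them MKI67 and TOP2A, were lower in siPAX9, 10 of them at least 2-fold. Their median log2 change was -1.60, against -0.33 for the 45 transport genes and -0.65 for the 6 NUP-named Y complex genes. KPNA2, at -0.52, lay above 11 of the 12 markers. In bulk RNA, fewer dividing cells and less of an mRNA per cell cannot be told apart, and the part of proliferation in the transport gene values was not tested.

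The median difference was larger among the mRNAs with a lower mean FPKM of the 2 groups. That mean includes the siPAX9 value, so a gene lower in siPAX9 also has a lower mean. Whether the difference depends on abundance was not tested. With the 45 genes divided evenly by mean FPKM, the 15 lowest, from 3.71 to 12.0 FPKM, had a median log2 change of -0.46, the 15 in the middle -0.33 and the 15 highest, from 21.5 to 79.3 FPKM, -0.26. Lower values made up 12, 12 and 11 of the 15 genes. Some values carry a further limit. The annotation names at least 1 pseudogene for 13 of the genes, KPNA2, IPO7, TNPO1 and NUP210 among them, and 3 genes, NUP62, IPO11 and TNPO2, share their row with another symbol. The locus also spans another annotated coding gene for 5 genes, RABEP1 and RPAIN for NUP88, PGAP2 for NUP98, DOLK for NUP188, ATF5 for NUP62 and LRRC70 for IPO11. Of these, LRRC70 alone has no row separate from that of the transport gene. Rows of further coding genes are listed at the same locus as a transport gene, C1QBP (343 and 198 FPKM) for NUP88, POLR1C (23.4 and 20.1 FPKM) for XPO5, NAV1 (3.86 and 6.56 FPKM) for IPO9 and REC8 (1.05 and 2.51 FPKM) for IPO4. How reads were assigned at these loci was not tested.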

How the data were processed

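RNA was harvested from MCF10A cells after 72 hours of transfection with siNT or siPAX9 (3 samples each, 30 nM). Single-end reads of poly(A)+ libraries were mapped by the authors to hg19 (Bowtie 2), and FPKM came from Cufflinks, both run within Partek Flow. The deposited values are FPKM, 1 per group and locus, and how the authors scaled the libraries is not given in the sources used here. The deposited fold change, p-value and q-value columns hold the authors' own comparison and were not used.

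One row was kept per symbol, that with the highest mean FPKM, and the change was the log2 ratio of siPAX9 to siNT. Calls required a 2-fold difference and 1 FPKM in the higher group. With 1 value per group no test or error was possible. The counting was tested on data with known answers. Genes were named by rule: all members at 1.5-fold or more, the most abundant and the most different per role, other pathway genes at 2-fold or more, and RAN, CSE1L, TPR and RANBP2. The remaining members are given to account for all 48, and the other non-members named serve as context for these. Members, lists and motifs were chosen with earlier results of these data known. Loci were matched to GENCODE genes on GRCh37 (47 of 48 found), and promoter sequences came from RefSeq on GRCh38.p14. One listed marker gene is not reported here. Alternatives were the FPKM minimum, a pseudocount of 1, a 1.5-fold threshold, centring, single-symbol loci, summed rows and tested rows. Python 3.11.15, pandas 2.3.3 and matplotlib 3.10.9 were used.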

Additional observations from a re-analysis of the deposited data

How the results depend on the processing

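The 4 genes at least 2-fold lower were the same under no FPKM minimum, a minimum of 1 FPKM in both groups, centring on the median of all symbols, single-symbol loci, summed rows and tested rows. With 1 added to each FPKM there were 3, without NUP62CL, and at a 1.5-fold threshold 13. The count at least 2-fold higher was 0 under each of these settings except that with no FPKM minimum, where it was 1, KPNA7, which is listed at 0 in siNT. The median log2 change of -0.33 was -0.30 with no minimum, -0.31 with 1 added, -0.26 after centring and -0.37 over single-symbol loci. Centring turned the sign of 2 genes, IPO9 and NUP50, and left 33 of 45 lower (73.3%). No paired analysis was possible because the table holds 1 pooled value per group, and for the same reason no sample could be left out. The depth behind each FPKM is unknown.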

Other observations

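Protein-coding genes that start within 1000 bases upstream of a member on the other strand were looked up in the annotation, which gave 5 pairs. PARPBP, a regulator of homologous recombination that starts 63 bases from NUP37, was at 8.21 FPKM in siNT and 3.56 in siPAX9, a log2 change of -1.20 beside -1.17 for NUP37. DIMT1, which methylates 18S rRNA and starts 29 bases from IPO11, was at 16.9 and 12.6 FPKM, -0.43 beside -0.26 for IPO11. POLH, a polymerase that copies past damaged DNA and starts 147 bases from XPO5, was at 6.83 and 9.24 FPKM, a log2 change of 0.44 beside -0.82 for XPO5. DOLK, which makes dolichol phosphate and starts 96 bases from NUP188, was at 8.46 and 8.15 FPKM, -0.05 beside -0.33 for NUP188, and it lies inside the locus listed for NUP188. The fifth neighbour, DNAAF6 beside NUP62CL, was not analysed here. Of the 4 pairs with values, 3 lay on the same side of 0 and 1 did not, and whether reads of the paired genes were separated by strand is not given in the sources used here.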
